A study of Arabidopsis thaliana with 30 samples.

Results

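The response of wild type Arabidopsis thaliana roots to nitrogen starvation was described from 6 of the 30 arrays of the series: 3 of roots kept without a nitrogen source and 3 of roots kept on 5 mM ammonium nitrate. Col-0 seedlings were raised on half-strength Murashige-Skoog agar with 1% sucrose, moved at 7 days to MGRL plates of either kind and harvested 3 days later, at 10 days of age, so both groups passed through the same sucrose medium. The starved plates lacked both nitrate and ammonium, and the parts played by each cannot be told apart. The other 24 arrays hold shoots of wild type seedlings treated in the same ways, and roots and shoots of a starved AtNIGT1.2 overexpressor. They also hold roots and shoots of an estradiol-inducible AtNIGT1.2-VP line on 5 mM ammonium nitrate. That line was moved at 9 days, treated with estradiol or mock for 24 hours and harvested at 10 days of age. The sample titles call the 3 replicates of a group biological, and the labels do not say whether they came from separate cultures, so the tests measure the spread between samples that may be technical.

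Roots take up nitrate through plasma membrane transporters of the NRT2 and NPF families and ammonium through AMT transporters. Nitrate is reduced to nitrite and then to ammonium, which glutamine synthetase and glutamate synthase build into amino acids. Low internal nitrogen is known to raise the high affinity carriers, and nitrate itself acts as a signal, read through NLP transcription factors and damped by the NIGT1 family of GARP repressors. Starved plants are also known to alter root growth and the endodermal barriers.

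Levels are RMA values on the log2 scale, and a change is the starved mean minus the sufficient mean on that scale. A value after ± is the standard error of the fit. Of 15086 genes tested with limma, 5021 were higher in starved roots, which is 33.3% of them, and 3273 were lower, 21.7%, at a Benjamini-Hochberg adjusted p under 0.05. That split depends on scaling: with each array centred on its median it was 3683 higher (24.4%) and 4461 lower (29.6%), and after another quantile normalization 4360 higher (28.9%) and 3887 lower (25.8%). A change of at least 1 was less common, with 384 genes higher (2.55%) and 407 lower (2.7%). The median change over all genes was 0.06. Each count of list members below is to be set against the 33.3% and 21.7% of all genes. The filter used the mean over all 15 root arrays, so a gene high in some groups was tested even where others lay below the filter level of 5.33. Of the genes named here and tested, 9 averaged below it in starved and 11 in sufficient roots; no detection calls were used, such levels may hold background, and the size of those changes is uncertain. Pearson's r between arrays was 0.993 to 0.996 within each group and 0.945 to 0.956 between the groups. All 10 shoot markers lay below the filter on low values, with means over the 10 of 4.41 to 4.48 in starved and 4.56 to 4.68 in sufficient roots; of 9 root markers, 1 was higher and 1 lower.

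The high affinity nitrate carriers held some of the largest rises. Of 7 tested genes of the uptake list, 5 rose and 2 fell. NRT2.4 had log2 levels of 11.43, 11.21 and 11.51 in starved roots, against 5.39, 6.05 and 5.69 in sufficient roots. NRT2.1, the main high affinity carrier of nitrate-fed roots, had levels of 13.01, 12.97 and 13.11 in starved roots, against 9.37, 9.47 and 10.01 in sufficient roots. The groups lay far apart for both genes, and the sufficient values of NRT2.4 were close to the filter level. The change was 5.67 ± 0.12 for NRT2.4, a 51.1-fold rise (limma, adjusted p = 8.4e-19), and 3.41 ± 0.13 for NRT2.1, a 10.6-fold rise (limma, adjusted p = 7.0e-15). NRT2.2, the tandem neighbour of NRT2.1, measured 8.43, 8.07 and 8.16 in starved and 4.99, 5.05 and 4.83 in sufficient roots. NRT2.5, a carrier of long-starved plants, measured 6.2, 6.59 and 6.76 in starved and 4.66, 4.77 and 4.92 in sufficient roots. Neither gene's groups overlapped, with changes of 3.27 ± 0.11 and 1.73 ± 0.12 (limma, adjusted p = 4.4e-16 and 5.9e-11), and every sufficient level of both was below the filter level. NRT3.1, the partner protein that the NRT2 carriers need at the membrane, rose by 0.98 ± 0.07, with levels of 12.52, 12.34 and 12.43 in starved and 11.38, 11.45 and 11.54 in sufficient roots. The remaining members went the other way: NRT2.6 fell by 0.59 and NRT2.7, a carrier of the seed vacuole, by 0.64 on the log2 scale. NRT2.3 lay below the filter, at 4.96, 4.65 and 4.83 in starved and 4.85, 4.89 and 4.75 in sufficient roots. 

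**Figure D1:**
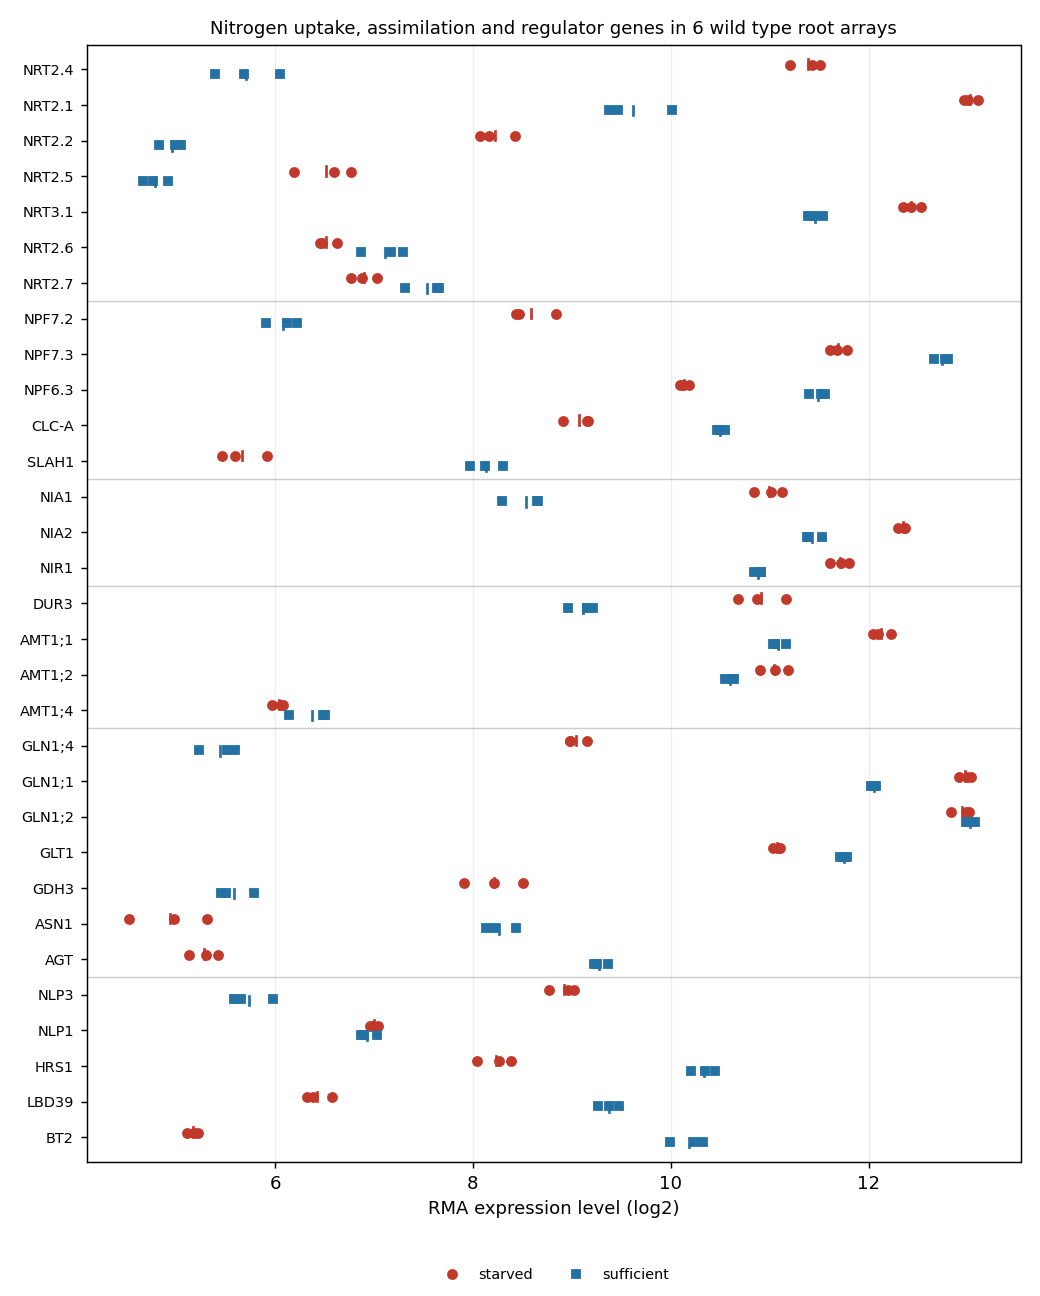
Log2 RMA levels of nitrogen uptake, assimilation and regulator genes, 1 gene per row, in the 3 starved (circles) and 3 sufficient (squares) wild type root arrays; short vertical lines are group means. The starved circles of NRT2.4, NRT2.1, NIA1, GLN1;4 and NLP3 lie right of all squares, those of ASN1, AGT, LBD39 and BT2 lie left of them, and GLN1;2 and NLP1 overlap.

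Transporters of nitrate with low affinity, and nitrate channels, moved in both directions, with 7 of 20 higher and 10 lower. NPF7.2, which draws nitrate back out of the xylem, measured 8.84, 8.47 and 8.44 in starved and 6.12, 5.91 and 6.22 in sufficient roots. NPF7.3, which loads nitrate into the xylem, measured 11.61, 11.68 and 11.78 in starved and 12.66, 12.77 and 12.8 in sufficient roots. The retrieval carrier thus lay wholly above and the loading carrier wholly below the sufficient range, with changes of 2.5 ± 0.14 and -1.06 ± 0.05 (limma, adjusted p = 2.3e-12 and 4.2e-13). NPF6.3, the dual affinity carrier and nitrate sensor of the root surface, measured 10.12, 10.1 and 10.18 in starved and 11.4, 11.52 and 11.55 in sufficient roots, a change of -1.36 ± 0.06. The fall was 2.56-fold. SLAH1, a partner of anion channels in the stele, fell by 2.47 and SLAH3, a nitrate-permeable anion channel, by 0.99 on the log2 scale. CLC-A, the proton exchanger that fills the vacuole with nitrate, fell by 1.42, whereas its relative CLC-B rose by 1.12, both on the log2 scale. NPF6.2 also fell, with a change of -1.2, and NPF3.1, NPF2.13 and NPF1.2 rose, with changes of 0.99, 0.81 and 0.39. Of the 16 NPF genes on that list, a subgroup set apart after the values were seen, 15 were tested, with 6 higher and 6 lower.

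All 12 tested genes of nitrate reduction and its reductant supply rose, with a median change of 0.74; 11 did with centred arrays or another quantile normalization. NIA1, a minor nitrate reductase, measured 11.13, 11.01 and 10.84 in starved and 8.66, 8.64 and 8.29 in sufficient roots. NIA2, the major nitrate reductase, measured 12.36, 12.29 and 12.37 in starved and 11.38, 11.53 and 11.38 in sufficient roots. Nitrite reductase, NIR1, measured 11.8, 11.61 and 11.72 in starved and 10.91, 10.91 and 10.84 in sufficient roots. All 3 genes had starved levels wholly above the sufficient ones, with changes of 2.46 ± 0.11, 0.91 ± 0.05 and 0.83 ± 0.06 (limma, adjusted p = 5.5e-14, 1.0e-12 and 1.4e-10). The plastid glucose-6-phosphate dehydrogenases G6PD3 and G6PD2, which supply NADPH, rose by 1.38 ± 0.08 and 0.48 ± 0.06. The root ferredoxin FD3 and the ferredoxin-NADP reductases RFNR2 and RFNR1, which pass electrons to nitrite reductase, rose by 0.64 ± 0.05, 0.91 ± 0.05 and 0.35 ± 0.06. UPM1, an enzyme of the siroheme cofactor shared by nitrite and sulfite reductase, rose by 0.73 ± 0.06. The 3 loci described in the files as 6-phosphogluconate dehydrogenases, AT5G41670, AT3G02360 and AT1G64190, rose by 0.76 ± 0.07, 0.41 ± 0.05 and 0.13 ± 0.04. The call of AT1G64190 was lost with centred or newly quantile normalized arrays and without either of 2 single arrays. It was also lost in a fit of the 6 arrays alone and without an intensity trend (limma, adjusted p = 0.051 in each).

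Ammonium and urea genes mostly rose, with 6 of 8 tested higher and 1 lower. DUR3, the proton-coupled urea carrier, measured 10.68, 10.87 and 11.16 in starved and 8.96, 9.15 and 9.22 in sufficient roots, a change of 1.8 ± 0.09 with no overlap. The ammonium carriers AMT1;1, AMT2 and AMT1;2 rose by 1.04 ± 0.05, 0.77 ± 0.06 and 0.45 ± 0.07 (limma, adjusted p = 7.8e-13, 1.4e-09 and 2.3e-05). AMT1;4, known from pollen, was the member that fell, by 0.34 on the log2 scale; its call was lost without either of 2 sufficient arrays. The urease gene URE and its accessory gene UREG rose by 0.47 ± 0.09 and 0.59 ± 0.06, while the accessory gene UREF differed by -0.04 ± 0.1 (limma, adjusted p = 0.79).

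Among 14 tested amino acid importers 8 rose and 2 fell. AAP4, an amino acid permease, measured 10.84, 11.13 and 11.0 in starved and 8.97, 8.99 and 8.67 in sufficient roots, a change of 2.11 ± 0.09. LHT1, which takes up amino acids at the root surface, measured 11.19, 11.09 and 11.35 in starved and 10.06, 10.21 and 10.06 in sufficient roots, a change of 1.1 ± 0.07. Neither gene's groups overlapped. AAP6, AAP7 and the proline carrier PROT2 rose by 1.62 ± 0.14, 1.27 ± 0.09 and 1.06 ± 0.09, and the cationic carrier CAT6 fell by 1.09 on the log2 scale. The UMAMIT family, whose characterised members let amino acids out of cells, was split. Of 29 tested members 11 were higher and 9 lower, against 33.3% and 21.7% of all genes. UMAMIT33 measured 6.99, 6.75 and 6.76 in starved and 10.36, 9.95 and 9.91 in sufficient roots, a change of -3.24 ± 0.17, and UMAMIT20 changed by -2.08 ± 0.11. UMAMIT10, UMAMIT17 and SIAR1 moved the other way, with changes of 1.76 ± 0.09, 1.21 ± 0.12 and 1.02 ± 0.07.

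Of 7 tested genes of glutamine and glutamate synthesis 5 rose and 1 fell, and GLN1;4 had the largest change of them. GLN1;4, a cytosolic glutamine synthetase, measured 8.99, 9.16 and 8.98 in starved and 5.59, 5.51 and 5.23 in sufficient roots, a 12.1-fold rise and a change of 3.6 ± 0.1 (limma, adjusted p = 1.3e-16). GLN1;1 and GLN1;3 rose by 0.93 ± 0.04 and 0.37 ± 0.06, the plastid enzyme GLN2 by 0.21 ± 0.05, and the ferredoxin-dependent glutamate synthase GLU2 by 0.41 ± 0.05. GLN1;2 measured 12.98, 12.84 and 13.02 in starved and 13.02, 12.98 and 13.07 in sufficient roots, and these overlapped (limma, adjusted p = 0.12). It was called lower with centred arrays (limma, adjusted p = 0.0059) and without the third starved array (limma, adjusted p = 0.033). GLT1, the NADH-dependent glutamate synthase of non-green tissue, fell, by 0.67 on the log2 scale. Its starved levels were 11.03, 11.09 and 11.11, against 11.75, 11.71 and 11.78 in sufficient roots. GLN1;5 and GLU1 lay below the filter.

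Of 17 tested enzymes that store or release nitrogen as asparagine and glutamate, 5 rose and 5 fell, and 7 were not called. These counts are near the shares of all genes, 33.3% higher and 21.7% lower, and the median change was 0.04. Single members had large changes, from -4.18 to 2.62. ASN1, the dark-inducible asparagine synthetase, measured 5.31, 4.98 and 4.52 in starved and 8.13, 8.21 and 8.44 in sufficient roots, a change of -3.32 ± 0.18 with every starved level below the filter level. The asparaginase ASPGB1, which frees ammonium from asparagine, measured 10.18, 10.17 and 9.7 in starved and 7.88, 7.63 and 7.86 in sufficient roots, a change of 2.23 ± 0.12. The isoforms of glutamate dehydrogenase went apart: GDH3 rose by 2.62 ± 0.11, while GDH1 and GDH2 had changes of -1.69 ± 0.06 and -1.43 ± 0.05. GDH3 measured 8.5, 8.21 and 7.91 in starved and 5.45, 5.79 and 5.51 in sufficient roots. AGT, a peroxisomal aminotransferase of photorespiration, measured 5.13, 5.42 and 5.3 in starved and 9.23, 9.25 and 9.36 in sufficient roots, and GAT1_2.1, a protein with a glutamine amidotransferase domain, measured 5.39, 5.31 and 5.51 in starved and 9.62, 9.45 and 9.68 in sufficient roots. AGT averaged less than the filter level in starved roots, and both fell, with changes of -4.0 ± 0.11 and -4.18 ± 0.13 (limma, adjusted p = 4.3e-17 and 1.8e-16). ASN3 and the cytosolic aspartate aminotransferase ASP2 rose by 0.66 ± 0.08 and 0.43 ± 0.05.

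Amino acid breakdown was lower: 10 of 15 tested genes fell and 1 rose, with a median change of -0.87. All 5 genes of branched chain amino acid breakdown, a subgroup set apart after the values were seen, fell. BCAT-2, the mitochondrial aminotransferase of these amino acids, measured 5.54, 5.43 and 5.45 in starved and 7.44, 7.67 and 7.38 in sufficient roots, a change of -2.02 ± 0.11. The dehydrogenase IVD, the carboxylase subunits MCCA and MCCB, and DIN4, a subunit of the keto acid dehydrogenase, had changes of -1.8 ± 0.1, -1.34 ± 0.07, -0.95 ± 0.07 and -0.99 ± 0.08. Proline breakdown fell as well, with changes of -1.75 ± 0.07 for ALDH12A1 and -0.87 ± 0.09 for proline dehydrogenase, ERD5. The methionine lyase MGL fell by 1.27 on the log2 scale and the hydroxyglutarate dehydrogenase D2HGDH rose by 0.28 ± 0.08. The call of D2HGDH was lost without 1 of the starved arrays (limma, adjusted p = 0.061), and 2 members were higher without either of 2 sufficient arrays.

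Of 25 tested nitrogen regulators, the NLP genes among them, 10 rose, 8 fell and 7 were not called. Over all genes tested, 33.3% were higher and 21.7% lower. BT2, a BTB and TAZ domain protein that restrains nitrate uptake, measured 5.22, 5.11 and 5.18 in starved and 9.99, 10.24 and 10.33 in sufficient roots, a change of -5.02 ± 0.12 (limma, adjusted p = 4.7e-18), with every starved level below the filter level. The repressors LBD37, LBD38 and LBD39 fell together: LBD39 measured 6.38, 6.57 and 6.32 in starved and 9.27, 9.48 and 9.38 in sufficient roots, and LBD38 8.67, 8.34 and 8.56 in starved and 10.76, 10.7 and 10.72 in sufficient roots. Their changes were -2.95 ± 0.08, -2.2 ± 0.07 and, for LBD37, -0.63 ± 0.07. NAC4, TGA1 and CIPK23, which act in nitrate signalling, fell with changes of -1.13 ± 0.09, -0.72 ± 0.09 and -0.66 ± 0.05, while the kinase gene CPK30 and the transcription factor gene TCP20 rose by 0.57 ± 0.1 and 0.43 ± 0.08.

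Of 7 loci listed as the NIGT1 family, of which the files and the reference table name HRS1 and EFM, 4 fell and 1 rose. HRS1 measured 8.05, 8.26 and 8.39 in starved and 10.2, 10.45 and 10.34 in sufficient roots, a change of -2.1 ± 0.1. The loci AT4G37180, AT1G25550 and AT1G68670 fell with changes of -2.14 ± 0.07, -2.04 ± 0.07 and -1.13 ± 0.06. AT3G25790 was the 1 that rose, by 0.39 ± 0.08, and AT1G49560 lay at the threshold with a change of 0.34 ± 0.14 (limma, adjusted p = 0.05). AT1G49560 was called higher in a fit of the 6 arrays alone and without any of 3 single arrays, so that 2 members were higher there. With a replicate block AT1G49560 was called higher as well (limma, adjusted p = 0.043). EFM differed by 0.02 ± 0.11 (limma, adjusted p = 0.87).

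The NLP genes, which encode the activators of the nitrate response, rose as a group, with 7 of 8 tested higher, 0 lower and a median change of 1.26; this subgroup was set apart after the values were seen. NLP3 measured 9.02, 8.77 and 8.96 in starved and 5.58, 5.98 and 5.65 in sufficient roots, a 9.06-fold rise. NLP2 measured 8.44, 8.1 and 8.39 in starved and 6.28, 6.54 and 6.36 in sufficient roots. The changes were 3.18 ± 0.1 and 1.92 ± 0.12, followed by 1.77 ± 0.1 for NLP8, 1.39 ± 0.07 for NLP4, 1.14 ± 0.08 for NLP5, 0.93 ± 0.06 for NLP7 and 0.39 ± 0.09 for NLP6. NLP7, the regulator best known from nitrate signalling, had levels of 9.08, 9.16 and 9.15 in starved and 8.13, 8.13 and 8.35 in sufficient roots. NLP1 overlapped between the groups, at 6.99, 7.04 and 6.96 in starved and 6.87, 7.03 and 6.9 in sufficient roots (limma, adjusted p = 0.55), and NLP9 lay below the filter.

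The list of CEP peptide signalling, a route by which starved roots are known to signal nitrogen need to the shoot, had 6 of 7 tested members higher and 1 lower. AT4G32950, described in the files as a putative phosphatase, had the largest rise of all genes called: 12.17, 11.77 and 12.15 in starved roots, against 5.74, 6.29 and 6.58 in sufficient roots. That is a change of 5.83 ± 0.14, or 56.8-fold (limma, adjusted p = 6.3e-18). AT5G66815, described as an expressed protein, measured 8.64, 8.44 and 8.27 in starved and 5.17, 4.9 and 4.64 in sufficient roots. That is a change of 3.55 ± 0.12, with every sufficient level below the filter level. The glutaredoxin-like genes AT1G06830, AT3G62960 and AT2G47880 rose by 2.15 ± 0.16, 1.0 ± 0.14 and 0.83 ± 0.12. The receptor kinase gene CEPR1 rose by 0.57 ± 0.06. CEPR2 fell by 0.24 on the log2 scale, a call lost without any of 3 single arrays. CEP1 and AT2G23440 were below the filter on their means over the 15 root arrays, though levels of 5.22, 5.21 and 5.59 for AT2G23440 in starved roots lay above those of 4.05, 4.26 and 4.1 in sufficient roots.

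Among the 15 largest rises, beside genes already described, were several outside nitrogen metabolism. AT5G04120, described as a phosphoglycerate mutase-like protein, measured 9.63, 9.79 and 9.42 in starved and 5.8, 5.83 and 6.02 in sufficient roots. The cytochrome P450 gene CYP716A2 measured 8.77, 8.74 and 8.75 in starved and 4.92, 5.1 and 5.21 in sufficient roots. Both lay far above the sufficient range, with changes of 3.73 ± 0.12 and 3.67 ± 0.1, and every sufficient level of CYP716A2 was below the filter level. Glutaredoxin-like AT5G11930 changed by 3.41 ± 0.1, AT4G33040, described as a putative protein, by 3.06 ± 0.1, and the homeodomain gene BLH4 by 2.67 ± 0.09. BLH4 averaged 5.06 in sufficient roots, also below the filter level. RNS1, a ribonuclease known from phosphate starvation and senescence, measured 9.72, 9.66 and 9.82 in starved and 6.73, 6.58 and 6.71 in sufficient roots, a change of 3.06 ± 0.09.

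The 15 largest falls had changes from -5.17 to -3.3. AT4G39675, described only as an expressed protein, measured 5.61, 6.26 and 6.35 in starved and 11.37, 11.33 and 11.04 in sufficient roots, a 36-fold fall. AT1G49500, of unknown function, measured 6.2, 6.46 and 6.34 in starved and 10.85, 10.85 and 10.76 in sufficient roots, a 22.4-fold fall. For each of them every sufficient value was more than 4 log2 units above every starved value. PSK4, a precursor of the growth peptide phytosulfokine, and GRP-3, a glycine-rich wall protein, had changes of -3.56 ± 0.13 and -3.59 ± 0.14. AT5G19120, AT2G16005, AT1G80380 and AT2G20670 had changes of -3.89 ± 0.13, -3.88 ± 0.15, -3.42 ± 0.08 and -3.34 ± 0.09; their descriptions give no function beyond a likeness of the first to conglutin.

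All 4 kelch F-box genes fell. These proteins mark phenylalanine ammonia-lyase and activators of the cytokinin response for breakdown. KFB20 measured 6.09, 6.58 and 6.29 in starved and 10.16, 10.35 and 10.25 in sufficient roots, and KFB50 5.96, 6.34 and 6.15 in starved and 9.51, 9.59 and 9.48 in sufficient roots. Starved levels lay wholly below, with changes of -3.94 ± 0.12 and -3.38 ± 0.1 (limma, adjusted p = 2.4e-16 and 1.8e-16); KFB01 and KMD3 changed by -1.18 ± 0.08 and -1.02 ± 0.16. PAL1, which encodes phenylalanine ammonia-lyase, rose by 0.91 ± 0.05, with levels of 12.31, 12.2 and 12.27 in starved and 11.41, 11.32 and 11.33 in sufficient roots. PAL2 rose by 0.17 ± 0.05, a call lost with centred arrays. Of 11 tested flavonoid and phenylpropanoid genes 6 rose and 2 fell, among them the flavonoid hydroxylase gene TT7 with 0.96 ± 0.1, F3H with 0.71 ± 0.09 and the repressor MYBL2 with -2.67 ± 0.14.

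Of 16 tested genes of synthesis, activation and breakdown 7 rose and 7 fell. IPT3, the nitrate-responsive enzyme that makes cytokinin precursors, measured 6.29, 6.23 and 6.02 in starved and 7.49, 7.37 and 6.98 in sufficient roots. CYP735A2, which makes trans-zeatin forms, measured 7.16, 7.39 and 7.47 in starved and 8.92, 9.03 and 8.97 in sufficient roots. Both fell, with changes of -1.1 ± 0.12 and -1.63 ± 0.1, as did IPT5, CYP735A1, CKX4 and CKX6. LOG8 and LOG5, which release active cytokinin, rose by 1.17 ± 0.08 and 1.08 ± 0.11. Of 8 type-A response regulators, which cytokinin induces, 3 fell, or 5 with centred arrays and 0 in an unmoderated test of the 6 arrays (ARR5 -0.49 ± 0.09, ARR8 -0.47 ± 0.1, ARR9 -0.36 ± 0.09) and ARR3 rose by 1.18 ± 0.09.

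Genes known to respond to sugar supply moved together in part. Of 16 tested carbon status genes 9 fell and 5 rose. The trehalose phosphate synthase-like genes TPS8, TPS9, TPS10 and TPS11, a subgroup set apart after the values were seen, all fell. TPS8 measured 6.15, 6.61 and 6.79 in starved and 9.28, 9.4 and 9.62 in sufficient roots. SEN1, a dark-inducible gene, measured 4.77, 4.6 and 4.71 in starved and 8.13, 7.79 and 8.06 in sufficient roots, and DIN10, of the raffinose synthase family, 8.85, 9.18 and 8.92 in starved and 11.89, 12.07 and 12.2 in sufficient roots. None of these groups overlapped, every starved level of SEN1 was below the filter level, and the changes were -2.92 ± 0.15, -3.3 ± 0.13 and -3.08 ± 0.1; TPS9, TPS10 and TPS11 changed by -2.43 ± 0.12, -2.02 ± 0.07 and -2.67 ± 0.11. TPS5 and the 3 phosphoenolpyruvate carboxylase genes PPC1, PPC2 and PPC3 were higher, with changes of 0.53 ± 0.07, 0.44 ± 0.06, 0.74 ± 0.07 and 0.6 ± 0.06. The hexose carrier gene STP4 fell by 1.25 on the log2 scale.

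Sugar exporters of the SWEET family were divided, with 2 of 9 tested higher and 5 lower. SWEET13 measured 8.46, 8.73 and 8.44 in starved and 5.47, 5.75 and 5.32 in sufficient roots, and SWEET14 8.07, 8.29 and 7.43 in starved and 5.31, 5.15 and 5.25 in sufficient roots. SWEET12, which exports sucrose for phloem loading in leaves, measured 6.24, 6.76 and 6.81 in starved and 8.87, 9.0 and 8.85 in sufficient roots. The first pair rose by 3.03 ± 0.12 and 2.69 ± 0.14, and SWEET12 and SWEET11 fell, with changes of -2.3 ± 0.17 and -1.29 ± 0.19. Every sufficient level of SWEET14 was below the filter level. SWEET16, a vacuolar carrier, changed by -0.77 ± 0.09.

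**Figure D2:**
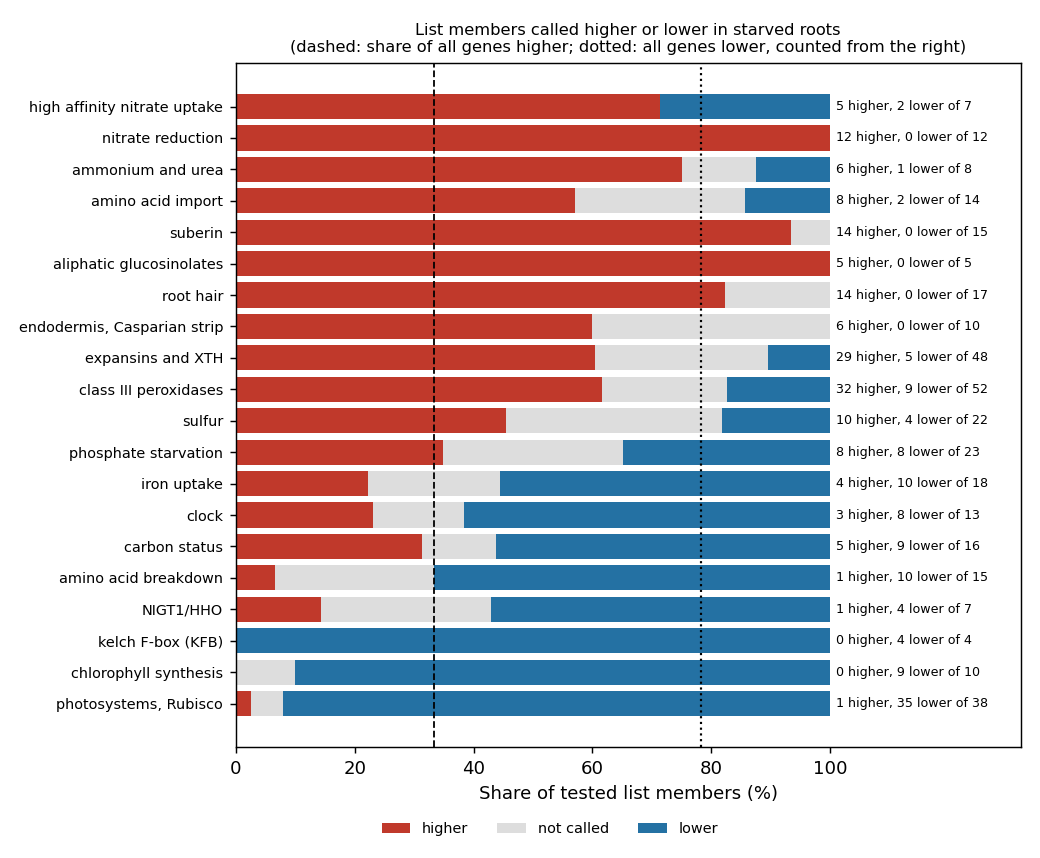
Share of the tested members of each gene list that were higher (left), not called (middle) or lower (right) in starved roots, in percent, with the counts beside each bar; the dashed line marks the 33.3% of all genes that were higher and the dotted line, counted from the right, the 21.7% that were lower. Nitrate reduction is filled by higher calls, the kelch F-box genes by lower calls, and 35 of 38 photosystem and Rubisco genes are lower.

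Plastid genes fell broadly. Of 38 tested photosystem and Rubisco genes 35 fell and 1, LHCB4.3, rose by 0.37 ± 0.12; that rise was lost without 1 starved array (limma, adjusted p = 0.073) and with centred arrays. The mean over all 40 genes ran from 7.22 to 7.32 in starved and from 8.28 to 8.29 in sufficient roots. RCA, which activates Rubisco, measured 8.09, 8.15 and 8.07 in starved and 9.69, 9.77 and 9.61 in sufficient roots, a change of -1.58 ± 0.07. PSAK, a photosystem I subunit, measured 8.39, 8.57 and 8.58 in starved and 10.05, 10.18 and 10.09 in sufficient roots, a change of -1.59 ± 0.07. Of 10 tested genes of chlorophyll synthesis 9 fell, led by CRD1 with -1.5 ± 0.07 and CHLM with -1.47 ± 0.08. Ribosomal proteins described as plastid or mitochondrial had 30 of 50 lower and 7 higher; AT5G24490, described as similar to a 30S subunit protein, fell by 2.53 and RPL24 by 0.91 on the log2 scale. In whole roots, fewer cells of a type and less RNA per cell cannot be told apart. The shoot markers, none of which passed the filter, were lower in starved roots in 5 of 10 cases with no overlap (means given above). Over all genes tested, starved values lay wholly below the sufficient ones for 22.6% and wholly above for 34.1%. No such share was computed for genes below the filter. The part of the shoot markers in the fall of the plastid genes was not tested.

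Genes of the root's barriers rose. Of 15 tested suberin genes 14 rose and 0 fell, with a median change of 0.98 and 13 higher with centred arrays. Suberin is the waxy polyester laid on endodermal walls. FAR4, which makes its fatty alcohols, measured 10.41, 10.49 and 10.6 in starved and 8.5, 8.54 and 8.73 in sufficient roots. CYP86B1, a fatty acid hydroxylase, measured 8.76, 8.71 and 8.9 in starved and 7.25, 7.18 and 7.11 in sufficient roots. GPAT5, an acyltransferase of suberin monomers, measured 8.68, 8.72 and 9.03 in starved and 7.34, 7.66 and 7.66 in sufficient roots. No starved value of these genes reached down to a sufficient one, and the changes were 1.91 ± 0.07, 1.61 ± 0.08 and 1.26 ± 0.1 (limma, adjusted p = 4.3e-15, 1.0e-12 and 7.8e-10). FAR5, FAR1, KCS2 and CYP86A1 rose by 1.49 ± 0.09, 1.25 ± 0.06, 1.32 ± 0.07 and 1.1 ± 0.08. The exporters ABCG2, ABCG6 and ABCG20 rose by 0.98 ± 0.09, 0.95 ± 0.08 and 0.6 ± 0.09, the feruloyl transferase ASFT by 0.74 ± 0.06, and the regulators MYB93 and MYB53 by 0.53 ± 0.09 and 0.53 ± 0.09. Of 10 Casparian strip and endodermis genes 6 rose and 0 fell, by smaller amounts: among them CASP1, CASP2 and CASP4, scaffold proteins of the strip, by 0.47 ± 0.05, 0.42 ± 0.07 and 0.46 ± 0.07, the receptor kinase gene GASSHO1 by 0.61 ± 0.06 and ESB1 by 0.24 ± 0.04.

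Root hair genes rose in 14 of 17 cases, with 0 lower, and in 11 with centred arrays. RHD6, the transcription factor that starts hair growth, measured 7.86, 7.88 and 7.86 in starved and 6.54, 6.42 and 6.48 in sufficient roots. PRP3, a hair wall protein, measured 9.78, 9.7 and 10.03 in starved and 8.82, 8.11 and 8.33 in sufficient roots, and PRP1 8.06, 8.09 and 8.22 in starved and 7.78, 6.39 and 6.81 in sufficient roots. The changes were 1.39 ± 0.1, 1.42 ± 0.12 and 1.13 ± 0.21. In sufficient roots the first array was the highest of the 3 for 13 of the 17 hair genes, against 34% of all genes tested; without that array 12 of the 17 were higher. RSL4, COW1, EXPA7 and EXPA18, which act in hair growth or loosen hair walls, rose by 0.33 ± 0.11, 0.7 ± 0.15, 0.84 ± 0.09 and 0.96 ± 0.12; the groups overlapped for RSL4, whose call was lost with centred arrays and without either of 2 single arrays.

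**Figure D3:**
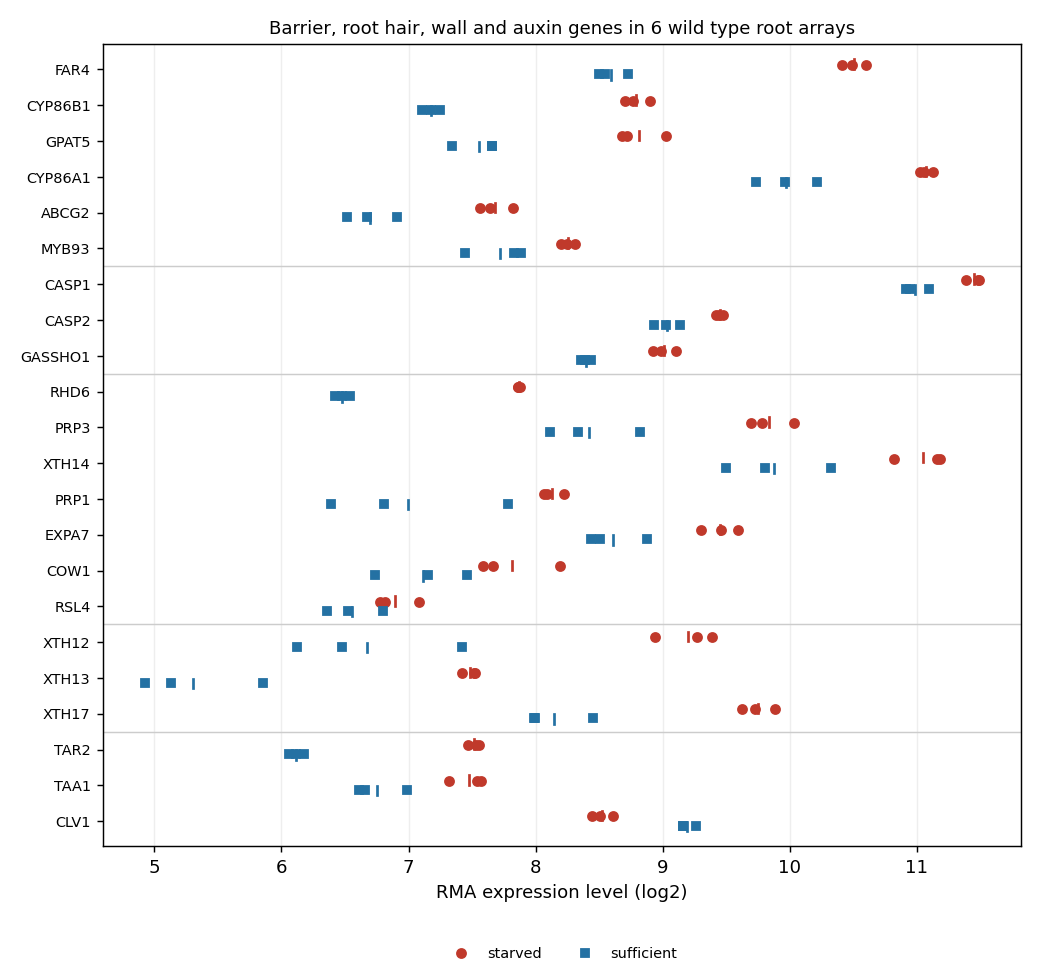
Log2 RMA levels of suberin, Casparian strip, root hair, wall and auxin genes in the 3 starved (circles) and 3 sufficient (squares) wild type root arrays, with group means as short vertical lines. Starved circles lie right of the squares for all genes shown but RSL4, which overlaps, and CLV1, which is lower; for PRP1 and XTH12 1 sufficient array lies nearer to the starved values than the others.

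Among expansins and xyloglucan-modifying XTH enzymes, which loosen walls, 29 of 48 tested rose and 5 fell; the count of falls was 3 without the first starved array, 10 with centred arrays and 7 after another quantile normalization. XTH12 measured 9.27, 8.94 and 9.39 in starved and 7.42, 6.12 and 6.47 in sufficient roots, and XTH13 7.51, 7.42 and 7.52 in starved and 5.85, 5.13 and 4.93 in sufficient roots. The groups did not overlap, with changes of 2.53 ± 0.2 and 2.18 ± 0.15. XTH17 and the expansin-like gene EXLB1 rose by 1.6 ± 0.11 and 1.19 ± 0.09, and XTH24 fell by 0.64 on the log2 scale. Class III peroxidases, which cross-link or loosen walls, had 32 of 52 higher and 9 lower. AT3G49960 and RHS19 rose by 1.59 ± 0.14 and 1.5 ± 0.12, while AT5G64120 measured 9.71, 9.72 and 9.84 in starved and 11.9, 11.72 and 11.8 in sufficient roots, a change of -2.05 ± 0.1.

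Of 22 tested auxin and root growth genes 9 rose and 3 fell, against 33.3% and 21.7% of all genes. With centred arrays 7 were higher and 4 lower. TAR2, an aminotransferase of auxin synthesis, measured 7.53, 7.47 and 7.55 in starved and 6.18, 6.11 and 6.06 in sufficient roots, a change of 1.4 ± 0.09 (limma, adjusted p = 1.8e-11). Its relative TAA1 rose by 0.72 ± 0.1, and the efflux carrier PIN7 by 0.54 ± 0.06. CLV1, a receptor that restrains lateral roots when nitrogen is short, measured 8.44, 8.61 and 8.5 in starved and 9.16, 9.16 and 9.26 in sufficient roots, a change of -0.67 ± 0.07.

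Of 22 tested sulfur genes 10 rose and 4 fell, or 7 fell with centred arrays and 6 after another quantile normalization. Over all genes tested, 33.3% were higher and 21.7% lower in the main fit. The reductase APR1, the committed step of sulfate assimilation, measured 10.49, 10.53 and 10.43 in starved and 9.08, 9.01 and 8.64 in sufficient roots. LSU2, a marker of low sulfur, measured 8.51, 8.28 and 8.54 in starved and 6.83, 6.56 and 6.43 in sufficient roots. SULTR1;2, the main sulfate uptake carrier, measured 10.41, 10.23 and 10.62 in starved and 11.86, 11.85 and 11.84 in sufficient roots. APR1 and LSU2 lay above and SULTR1;2 below the sufficient range, with changes of 1.58 ± 0.08, 1.84 ± 0.11 and -1.43 ± 0.07. APR2, APS1, LSU1 and SDI1 rose by 0.72 ± 0.06, 0.77 ± 0.06, 1.13 ± 0.14 and 1.4 ± 0.12. SULTR2;1, which returns sulfate to vascular cells, rose by 1.42 ± 0.1, while its relative SULTR2;2 fell by 1.82 on the log2 scale.

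All 5 tested genes of aliphatic glucosinolates, sulfur-rich defence compounds made from methionine, rose, with changes from 1.12 to 2.29. CYP83A1 measured 10.89, 11.0 and 10.97 in starved and 8.81, 8.9 and 8.27 in sufficient roots, and BCAT4, the first step of side chain growth, 11.45, 11.5 and 11.53 in starved and 9.74, 9.75 and 9.01 in sufficient roots. The regulator MYB28 rose by 1.13 ± 0.09, MAM1 by 1.29 ± 0.07 and the carrier gene BAT5 by 1.12 ± 0.1. Indole glucosinolate genes, made from tryptophan, did not move as 1 group: 3 of 11 rose and 3 fell, with CYP79B3 at -1.61 ± 0.08, CYP81F4 at -0.66 ± 0.06 and CYP83B1 at -0.39 ± 0.04.

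The iron uptake list held 18 tested genes, of which 10 fell and 4 rose. IRT1, the main iron carrier of the root surface, measured 5.2, 5.17 and 5.29 in starved and 8.09, 7.8 and 8.15 in sufficient roots. NAS4, which makes the metal chelator nicotianamine, measured 6.36, 5.97 and 6.1 in starved and 9.0, 9.02 and 8.97 in sufficient roots. The groups did not overlap, with changes of -2.8 ± 0.15 and -2.86 ± 0.13 (limma, adjusted p = 1.0e-12 and 9.1e-14), and every starved level of IRT1 was below the filter level. BHLH39 and OPT3 had changes of -0.85 ± 0.11 and -0.79 ± 0.09, and F6H1, an enzyme of coumarin synthesis, rose by 1.14 ± 0.06. The 3 ferritin genes, which store iron, rose, with changes of 0.72 ± 0.08 for FER3, 0.54 ± 0.05 for FER1 and 0.41 ± 0.08 for FER4.

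Phosphate starvation genes were divided, with 8 of 23 higher and 8 lower, against 33.3% and 21.7% of all genes. Of 6 tested genes of lipid remodelling, a subgroup set apart after the values were seen, 4 rose, 1 fell and 1 was not called. MGD3, MGD2, SQD2 and PLDZ2, which replace phospholipids by other lipids, rose by 1.06 ± 0.1, 0.82 ± 0.1, 0.85 ± 0.1 and 0.77 ± 0.12. In sufficient roots MGD3, MGD2 and PLDZ2 averaged 5.19, 4.8 and 5.14, below the filter level, so the size of their changes is uncertain. PHO1;H1, a phosphate exporter, measured 6.44, 6.07 and 5.98 in starved and 7.46, 7.45 and 7.85 in sufficient roots, and GDPD1, a phosphodiesterase, 6.41, 6.63 and 6.88 in starved and 8.11, 8.07 and 7.95 in sufficient roots. These fell without overlap, with changes of -1.42 ± 0.13 and -1.4 ± 0.1. PHO2, which removes phosphate carriers, rose by 0.7 ± 0.07, and the xylem loader PHO1 fell by 0.55 on the log2 scale.

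Among 13 tested clock genes 8 fell and 3 rose; the labels state no hour of harvest. LHY, expressed around dawn, rose by 1.04 ± 0.09, with levels of 7.09, 7.37 and 7.07 in starved and 6.08, 6.14 and 6.17 in sufficient roots. TOC1, expressed around dusk, fell, with levels of 8.88, 8.86 and 8.94 in starved and 9.75, 9.66 and 9.97 in sufficient roots and a change of -0.9 ± 0.07. The falls also took in PRR7, PRR5, ELF4 and ELF3, with changes of -0.88 ± 0.11, -0.73 ± 0.09, -0.82 ± 0.06 and -0.59 ± 0.08.

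Shoots of starved and sufficient wild type seedlings were set beside the roots. Their values come from a table normalized on its own, so the difference between the tissues was not tested. Of the 384 genes higher by at least 1 in roots, 241 were tested in shoots, and 66.0% of those were higher there and 4.98% lower; over all genes tested in both tissues 28.1% were higher and 26.4% lower in shoots. Of the 407 genes lower by at least 1 in roots, 368 were tested in shoots, with 55.2% lower and 12.8% higher. GLN1;4 had a change of 3.6 ± 0.1 in roots and 3.79 ± 0.16 in shoots, BT2 of -5.02 ± 0.12 in roots and -4.29 ± 0.3 in shoots, and DUR3 of 1.8 ± 0.09 in roots and 3.0 ± 0.16 in shoots. NRT2.4 differed by 5.67 ± 0.12 in roots and by 0.15 ± 0.12 in shoots, where it did not pass the test. The kelch F-box genes KFB20 and KFB50 differed by -3.94 ± 0.12 and -3.38 ± 0.1 in roots and by 0.13 ± 0.12 and 0.13 ± 0.09 in shoots, where neither passed the test. Nitrate reduction was higher in roots throughout, whereas in shoots 8 of 12 members were lower and 2 higher, with NIA1 at -2.43 ± 0.17, NIR1 at -1.66 ± 0.1 and NIA2 at -0.5 ± 0.07.

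**Figure D4:**
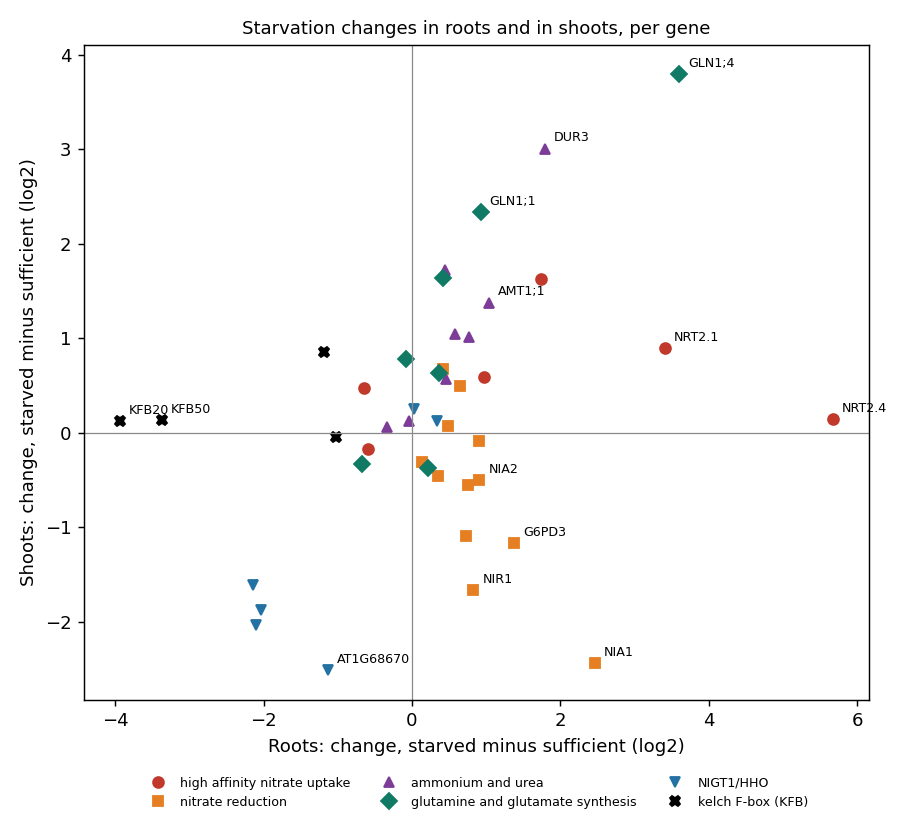
Change on starvation (starved minus sufficient, log2) of nitrogen genes in roots (horizontal) and in shoots (vertical), 1 point per gene tested in both tissues. GLN1;4 and DUR3 lie high in both, NRT2.4 lies at 5.67 in roots and 0.15 in shoots, and NIA1, NIR1, NIA2 and G6PD3 lie above 0 in roots and below 0 in shoots.

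In the remaining root groups, AtNIGT1.2-VP was induced with estradiol for 24 hours on 5 mM ammonium nitrate and set against mock treatment, a comparison that shares no array with starvation. Of all genes 15.8% were higher and 28.7% lower with estradiol. Of the 15 largest starvation rises 7 were also higher and 1 lower with estradiol, and of the 15 largest falls 8 were lower and 2 higher. NRT2.4 changed by 6.72 ± 0.12 with estradiol, GLN1;4 by 5.11 ± 0.1, NLP3 by 3.43 ± 0.1, RNS1 by 6.08 ± 0.09 and GDH3 by 7.12 ± 0.11. NRT2.1, which rose on starvation, changed by -0.72 ± 0.13, and AMT1;4, which fell on starvation, by 5.3 ± 0.11. BT2 differed by -0.09 ± 0.12 (limma, adjusted p = 0.57), and HRS1, which fell on starvation, was higher by 1.51 ± 0.1.

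The overexpressor was starved and set against the same 3 starved wild type arrays that enter the starvation comparison, so values are given side by side only. In that comparison 21.6% of genes were higher and 16.8% lower. NRT2.4 averaged 7.58 in starved overexpressor roots, 11.38 in starved wild type roots and 5.71 in sufficient wild type roots. GLN1;4 averaged 6.75, GDH3 5.09 and NLP3 7.21 in starved overexpressor roots, against 9.04, 8.21 and 8.92 in starved wild type roots. NRT2.1 averaged 12.43 in starved overexpressor roots and 13.03 in starved wild type roots. AT1G68670, a locus of the NIGT1 family list, averaged 13.67 in starved overexpressor roots and 7.81 in starved wild type roots. The names available do not say which locus of that list is AtNIGT1.2. The level in the overexpressor may therefore come from the overexpressed gene itself.

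**Figure D5:**
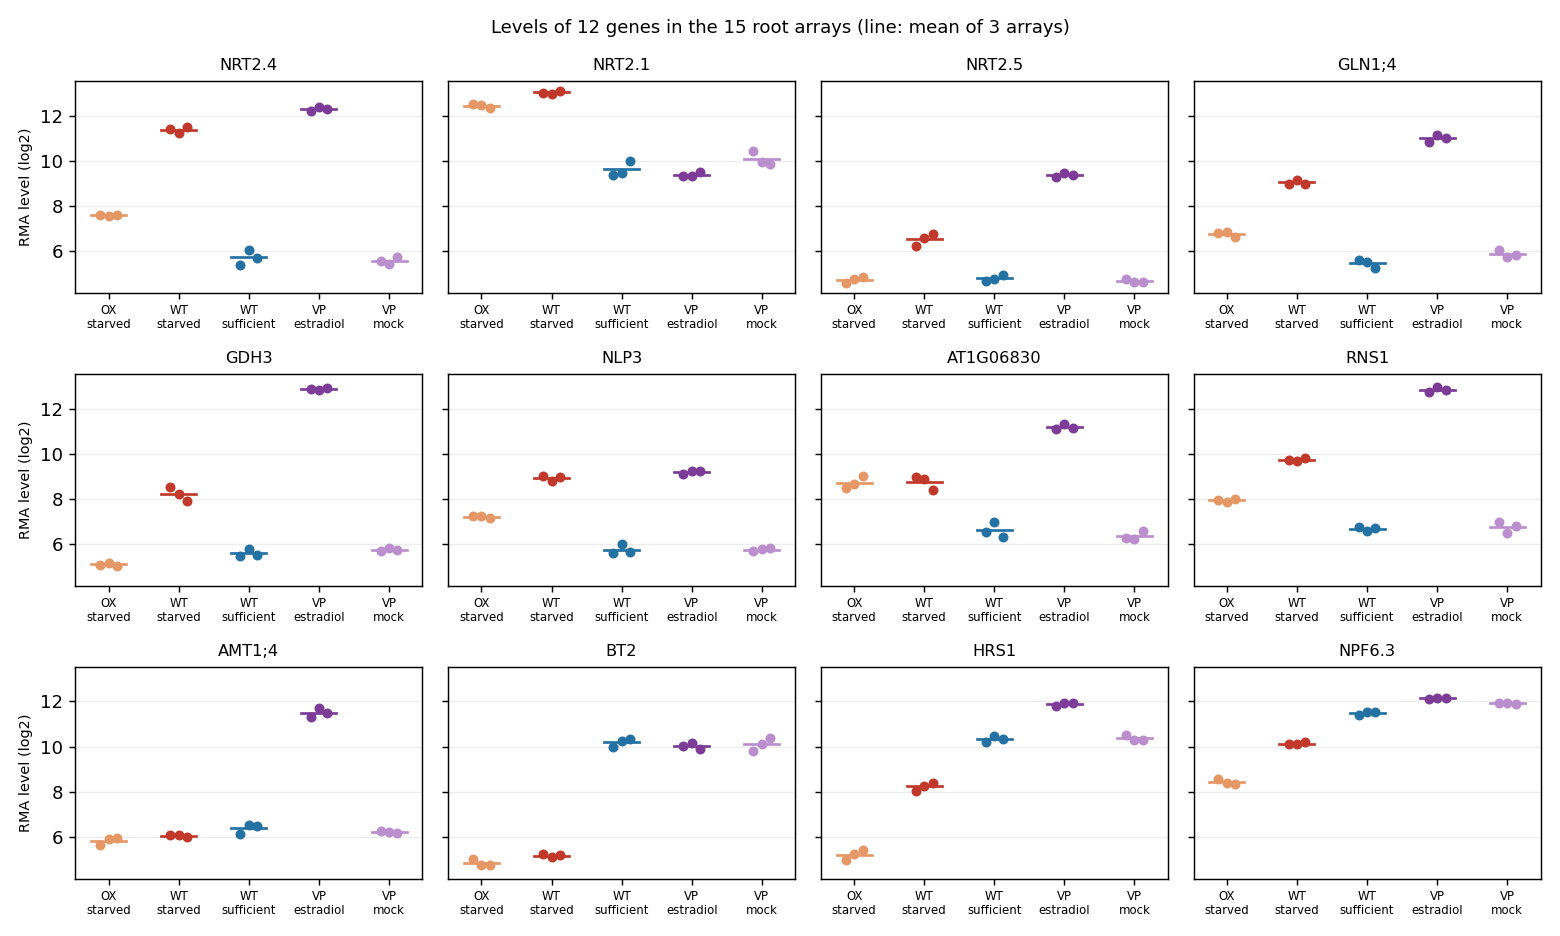
Log2 RMA levels of 12 genes in the 15 root arrays (starved AtNIGT1.2 overexpressor, OX; starved and sufficient wild type, WT; AtNIGT1.2-VP line, VP, with estradiol or mock), 1 point per array and a line at each group mean. NRT2.4, GLN1;4, GDH3, NLP3 and RNS1 are high in starved wild type and in estradiol-treated VP roots, whereas NRT2.1 is high in both starved groups and BT2 is low in both.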

How the data were processed

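Root and shoot RNA was hybridised to Affymetrix ATH1 arrays, with 3 arrays in each of 10 groups. The deposited values are RMA levels on the log2 scale, computed by the authors per the file headers, whereas the submitters' processing notes name MAS5. The authors' deposited table also holds p-values and q-values of a Welch test for each probe set. Of 22746 probe sets, 21452 name a single gene, 1110 several and 184 none, and 21278 of the single ones matched the reference table of gene symbols. Only single-gene probe sets were named, 1 per gene, the one with the highest mean; where a gene's probe sets were called in opposite directions (6 of 138 genes with several tested) the brightest decided.

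Levels were fitted with limma 3.58.1 in R 4.3.3: 15 root arrays, a mean per group, a spread shared by the 5 groups with an intensity trend, and Benjamini-Hochberg adjustment over 15922 probe sets at or above the 30th percentile of mean level, with a threshold of 0.05. The fit was also run on simulated arrays with known changes and independent normal noise. Those arrays held no scaling differences, so that run cannot show how scaling affects the calls. The number of arrays limits the precision, and an exact test of 3 against 3 arrays of 1 gene cannot go below p = 0.1. Shoots were fitted in the same way from their own table; the planned test of roots minus shoots was not run, since the series matrix holds the same values.

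Named genes are the 15 largest changes in each direction, the members of the main nitrogen lists that have a single-gene probe set, and from other lists the members with the largest changes; further list members were named after their values were seen. The members and lists were chosen with earlier results of these data known. Deviations from the group means of equally numbered starved and sufficient arrays correlated at -0.019, -0.040 and 0.073. Those of differently numbered arrays correlated at -0.063 to 0.073. The main fit did not pair arrays, and these values cannot show whether the samples were handled in pairs. Alternatives changed the filter, the arrays fitted, the spread model, the scaling and the test, added a replicate block, or left out 1 array.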

Additional observations from a re-analysis of the deposited data

Results flagged for a closer look

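The genes given here had all 3 starved arrays on one side of the sufficient arrays in roots and on the opposite side in shoots. Only genes named in this report were examined, so the counts below depend on which genes were named. In roots alone, starved values lay wholly above the sufficient ones for 34.1% of all genes tested and wholly below for 22.6%. No share of all genes was computed for both tissues together. The order of the arrays alone decided, without a test in shoots, so some shoot changes are small beside their standard errors. Values are changes on starvation on the log2 scale, first in roots and then in shoots, and the difference between the tissues was not tested.

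Nitrate transport and reduction made up 12 of these. NIA1 changed by 2.46 in roots and -2.43 in shoots, and NIA2 changed by 0.91 in roots and -0.5 in shoots. NIR1 changed by 0.83 in roots and -1.66 in shoots, and G6PD3 changed by 1.38 in roots and -1.17 in shoots. UPM1 changed by 0.73 in roots and -1.09 in shoots, and AT5G41670 changed by 0.76 in roots and -0.55 in shoots. AT1G64190 changed by 0.13 in roots and -0.31 in shoots, and NPF7.3 changed by -1.06 in roots and 1.45 in shoots. NPF6.2 changed by -1.2 in roots and 0.42 in shoots, and NRT2.7 changed by -0.64 in roots and 0.47 in shoots. CIPK23 changed by -0.66 in roots and 0.37 in shoots, and TGA1 changed by -0.72 in roots and 0.32 ± 0.14 in shoots.

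Amino acid, sugar and phenylpropanoid genes made up 5 of these. GLN2 changed by 0.21 in roots and -0.37 in shoots, and UMAMIT20 changed by -2.08 in roots and 1.0 in shoots. SWEET11 changed by -1.29 in roots and 0.54 in shoots, and KFB01 changed by -1.18 in roots and 0.86 in shoots. PAL2 changed by 0.17 in roots and -0.37 in shoots.

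Sulfur, glucosinolate, iron and clock genes made up 5 of these. APR2 changed by 0.72 in roots and -0.42 in shoots, and SULTR2;1 changed by 1.42 in roots and -0.3 ± 0.13 in shoots. CYP83B1 changed by -0.39 in roots and 0.83 in shoots, and FER3 changed by 0.72 in roots and -1.13 in shoots. ELF4 changed by -0.82 in roots and 1.41 in shoots.

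Growth, wall, stress and other genes made up 8 of these. CLV1 changed by -0.67 in roots and 0.29 in shoots. EXPA18 changed by 0.96 in roots and -0.13 ± 0.15 in shoots, a shoot change smaller than its standard error. GASSHO1 changed by 0.61 in roots and -0.35 in shoots, and GRP-3 changed by -3.59 in roots and 0.28 in shoots. TAR2 changed by 1.4 in roots and -0.95 in shoots, and WRKY70 changed by -0.73 in roots and 1.38 in shoots. XTH17 changed by 1.6 in roots and -0.54 in shoots, and XTH24 changed by -0.64 in roots and 0.85 in shoots.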

How the results depend on the processing

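Of 242 named genes called in roots, 235 kept their call under every alternative that tested them, except an unmoderated test of the 6 arrays. A gene removed by the filter at the 50th percentile was not tested there, and its call was counted as kept. None of the 242 changed sign in an alternative that tested it. The unmoderated test lost 52 of the 242 calls, and 2 genes that were not called, GLN1;2 and AT1G49560, gained a call under some alternatives. The unmoderated test called 1713 genes higher and 1301 lower, 3014 in all, against 5021 and 3273 in the report. Leaving out 1 array gave 4333 to 5020 genes higher and 2881 to 3207 lower. With a replicate block 5012 were higher and 3245 lower, and no named call was lost; dropping the filter gave 5261 higher and 4809 lower. By Benjamini-Hochberg values, the authors' deposited table calls 1371 probe sets higher and 1162 lower, and 4438 higher and 3942 lower by q-values. Genes that were not called crossed 0: EFM was -0.035 after another quantile normalization, -0.058 with centred arrays, and from -0.067 to 0.139 without 1 array; NLP1 was -0.023 and -0.020 under these scalings; UREF ran from -0.088 to 0.025 without 1 array; the cause was not tested. The alternatives for the roots minus shoots test were not run, and the series matrix gave the same values as the root table.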

Other observations

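Several gene families outside the groups above moved in both directions in starved roots, where 33.3% of all genes were higher and 21.7% lower. Of 25 tested aquaporins 9 were higher and 11 lower. NIP6;1, a boron channel, measured 7.47, 7.43 and 7.42 in starved and 5.84, 5.81 and 5.8 in sufficient roots, a change of 1.62 ± 0.08. TIP2;3, a vacuolar channel that passes ammonia, measured 8.72, 8.75 and 9.04 in starved and 10.11, 10.32 and 10.55 in sufficient roots, a change of -1.49 ± 0.12. Neither gene's groups overlapped. Of 46 tested WRKY factors 12 were higher and 14 lower, with WRKY60 at 1.39 ± 0.07 and WRKY70, a regulator of salicylate defence, at -0.73 ± 0.1. Of 39 tested glutathione transferases 20 were higher and 7 lower, or 4 lower without the last sufficient array. GSTF11 rose by 2.0 ± 0.1 and GSTU4 by 1.78 ± 0.13.

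Histone and cyclin genes, which follow cell division, had counts in roots that depend on scaling. Of 30 tested histones 13 were higher and 2 lower in roots, or 9 and 6 with centred arrays, while in shoots 1 was higher and 25 lower. Of 22 tested cyclins 8 were higher and 0 lower in roots, or 6 and 1 with centred arrays. In shoots 21 of them were tested, with 1 higher and 14 lower. HIS1-3, a linker histone known from drought, fell in roots, with levels of 5.24, 6.19 and 6.5 in starved and 8.49, 8.44 and 9.14 in sufficient roots and a change of -2.71 ± 0.23. Of 16 autophagy and senescence genes 4 were higher and 4 lower in roots, against 33.3% and 21.7% of all genes. In shoots 15 of them were higher and 0 lower. Over all genes tested in both tissues, 28.1% were higher and 26.4% lower in shoots. NYE1, which starts chlorophyll breakdown, had a change of 0.53 ± 0.09 in roots and 1.84 ± 0.17 in shoots. The differences between the tissues were not tested.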
